A study of Mus musculus with 126 samples.

Results

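The zinc finger genes examined here are the genes whose symbol is Zfp followed by a number and whose first listed exon lies on mouse chromosome 7, with Zfp36 left out because it codes for an RNA-binding protein of another type. They number 83 of the 23420 genes in the deposited count table, beside 249 genes of the same kind of symbol on other chromosomes. The rule that picks them reads name and place and no expression value. Of the 83, 82 were expressed highly enough to be tested. The member left untested was Zfp575, with 0 and 0 reads without and 1 and 2 with TSA in wild type, and 1 and 0 without and 0 and 4 with TSA in TKO. At this depth 3 reads correspond to 0.193 to 0.226 CPM, so Zfp575 was at or near the limit of detection in every group.

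The 8 RNA-seq libraries of the series came from mouse embryonic stem cells of the J1 line in 4 groups of 2 libraries, which the series' design text calls biological replicates. Wild type cells were kept in 0.0033% DMSO, the solvent, or exposed for 36 h to Trichostatin A (TSA), an inhibitor of histone deacetylases, at a labelled 5 ng/µl, and the cells with the genotype Dnmt1-/-, Dnmt3a-/-, Dnmt3b-/- (TKO), which lack the DNA methyltransferases, were treated in the same way. All groups were grown on gelatin in serum with leukaemia inhibitory factor. The number of TKO clones is not given in the sources used here. The other 118 samples, which measured transcription factor binding, histone H3 acetylation and chromatin accessibility, were not analysed here.

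Most proteins named Zfp carry tandem C2H2 zinc fingers, and many of them also carry a KRAB domain. In KRAB zinc finger proteins the fingers read a DNA sequence, often within a transposable element, and the KRAB domain recruits the corepressor TRIM28, which brings in the histone methyltransferase SETDB1, HP1 proteins and the deacetylase complex NuRD. Their genes multiplied by tandem duplication and therefore lie in clusters, and DNA methylation and histone H3 lysine 9 methylation are part of the silencing that they start in early embryos and embryonic stem cells. Which of the 83 genes code for a KRAB domain was not examined here.

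Read by distance, with a gap of over 1 Mb between consecutive starts as the border, the 83 genes formed 18 runs along the chromosome (coordinates here are of mm10). 7 of the runs were single genes and 7 held at least 5 members, 67 members in all. The longest run held 15 genes between 29768552 and 30169727, from Zfp84 to Zfp146, and no other tested gene lay between its members. The run of 14 genes from Zfp180 to Zfp526 (24081944 to 25227505) was interspersed with 23 other tested genes. Only Zfp575, Zfp507 and Zfp646 had exons overlapping another listed gene, over 3.6%, 2.3% and 8.8% of their exon length, and for these the strand used in counting is not given in the sources used here.

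Promoter sequences of 300 bases, from 250 bases before to 50 bases after an annotated start, were matched to 74 members from RefSeq (GRCm38.p6, the same assembly as the table's mm10). The members' promoters had a median of 15 CpG dinucleotides against 7 over all 32851 promoters of the RefSeq table. The study assayed binding of NRF1, GABPA, SP1, MAX and YY1, so the letters that these factors are known to prefer were searched on both strands. The 10-base NRF1 motif, spelled by the capitals further on, was present in 5 of the 74 promoters (6.76%) and in 0.971% of all promoters of the same length. CCGGAAGT (GABPA) was present in 9 members (12.2%, all promoters 3.89%). GGGCGG (SP1) was present in 29 members (39.2%, all promoters 35.7%). CACGTG (MAX) was found in 6 members (8.11%, all promoters 7.15%). A 10-base YY1 motif was found in 2 members (2.70%, all promoters 0.852%). A match of letters is a description and not a measured binding site, and the difference between these shares was not tested.

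The 5 NRF1 matches are shown with 10 bases on each side because they are the motif of which the members held the largest share relative to all promoters. Capitals mark the motif, which is its own reverse complement, and each line is read 5′ to 3′ on the strand of the gene. The match began 2 bases before the annotated start in Zfp329 (chr7:12818843-12818872, minus strand), 8 in Zfp30 (chr7:29783950-29783979, plus strand), 116 in Zfp82 (chr7:30072920-30072949, minus strand), 198 in Zfp658 (chr7:43562162-43562191, plus strand) and 55 in Zfp719 (chr7:43579521-43579550, plus strand). The promoters used for Zfp30 and 3 other members belong to a start over 300 bases from the start in the count table.
Zfp329: accaggatctGCGCATGCGCagttgttgcg
Zfp30: gctcccttgtGCGCATGCGCattgaagcag
Zfp82: agtgagtgtgGCGCATGCGCacgcggtgcg
Zfp658: aaatagtagcGCGCATGCGCttcgccagcc
Zfp719: cagtggtggtGCGCATGCGCgccacccagg
Of these 5 genes, 2 fell with TSA in wild type (Zfp82 and Zfp658; edgeR adjusted p below 0.05, which 25.9% of all genes reached in that direction) and 4 fell in TKO (27.9% of all genes). Of the 69 tested members with a promoter and no such match, 25 and 30 fell. The wild type count of 2 was 0 without wild type DMSO replicate 2 or wild type TSA replicate 2, and 1 without wild type DMSO replicate 1, wild type TSA replicate 1 or either TKO DMSO library. The TKO call of Zfp719 was lost without wild type TSA replicate 1 (adjusted p 0.0548), wild type TSA replicate 2 (adjusted p 0.0566), TKO DMSO replicate 1 (adjusted p 0.314), TKO TSA replicate 1 (adjusted p 0.0515) or TKO TSA replicate 2 (adjusted p 0.21).

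A further 4 promoters are printed. Zfp112 had the largest difference between genotypes in DMSO, Zfp180 is its neighbour, and Zfp819 had the largest decrease with TSA. Zfp541 was likewise called higher in TKO in DMSO. Other members with large differences, such as Zfp764 and Zfp536, are not printed. Capitals mark CpG dinucleotides, the bases that DNA methyltransferases modify, in the promoters of Zfp112 (chr7:24112070-24112369, plus strand, 8 CpG), Zfp541 (chr7:16071595-16071894, plus strand, 4 CpG) and Zfp180 (chr7:24081647-24081946, plus strand, 12 CpG). In the promoter of Zfp819 (chr7:43606919-43607218, plus strand, 20 CpG) capitals mark CACGTG, which occurred there at 184 and at 37 bases before the start.
Zfp112: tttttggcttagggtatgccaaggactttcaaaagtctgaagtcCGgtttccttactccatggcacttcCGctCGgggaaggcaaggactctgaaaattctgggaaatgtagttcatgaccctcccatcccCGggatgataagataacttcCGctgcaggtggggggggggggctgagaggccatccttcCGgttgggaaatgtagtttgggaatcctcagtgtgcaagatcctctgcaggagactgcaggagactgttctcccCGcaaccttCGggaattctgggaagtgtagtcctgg
Zfp541: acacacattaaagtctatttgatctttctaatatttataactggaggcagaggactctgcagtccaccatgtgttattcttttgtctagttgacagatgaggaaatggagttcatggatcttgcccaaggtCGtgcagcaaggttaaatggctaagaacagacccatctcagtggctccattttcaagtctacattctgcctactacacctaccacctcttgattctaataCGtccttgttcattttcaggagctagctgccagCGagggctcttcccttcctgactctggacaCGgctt
Zfp180: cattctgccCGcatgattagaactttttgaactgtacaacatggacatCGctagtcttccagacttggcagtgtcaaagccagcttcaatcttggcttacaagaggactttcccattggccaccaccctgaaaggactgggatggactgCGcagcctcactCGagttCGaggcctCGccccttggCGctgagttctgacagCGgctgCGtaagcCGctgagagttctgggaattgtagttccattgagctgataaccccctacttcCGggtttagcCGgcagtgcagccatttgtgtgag
Zfp819: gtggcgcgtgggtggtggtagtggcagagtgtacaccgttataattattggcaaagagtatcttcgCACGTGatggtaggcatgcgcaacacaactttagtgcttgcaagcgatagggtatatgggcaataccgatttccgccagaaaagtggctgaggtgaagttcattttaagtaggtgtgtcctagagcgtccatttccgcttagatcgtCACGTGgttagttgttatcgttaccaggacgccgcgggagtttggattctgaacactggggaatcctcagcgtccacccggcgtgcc
Of the 7 members called higher in TKO than in wild type in DMSO, Zfp112, Zfp541 and Zfp710 (4 CpG) had fewer CpG dinucleotides than the median of 15, and Zfp59 (18), Zfp296 (19), Zfp428 (19) and Zfp28 (20) had more. Among members with a promoter above that median 4 of 36 were higher, and among the others 3 of 38. The methylation of these sequences was not analysed here.

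Total counts ran from 13280631 to 15542527 per library. Levels below are CPM normalised by TMM (trimmed mean of M values) scaling, so that they compare 1 gene between libraries, given for replicate 1 and replicate 2 of each group, and changes are log2 fold changes with their standard error (SE), called at an edgeR adjusted p below 0.05 over all 15822 genes tested. The targeted genes Dnmt1, Dnmt3a and Dnmt3b together were at 1244 and 1252 CPM in wild type DMSO and at 206 and 196 in TKO DMSO. All 10 embryonic stem cell markers of the list used were detected in the libraries, and none of the marker lists had a gene at 0 throughout. No pair of replicates agreed within sampling noise (chi-square per degree of freedom 5.28 to 12.2), so each library counted as 1 replicate.

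The members were expressed at moderate levels. The highest per exon length in wild type DMSO was Zfp568 at 70.7 ± 8.75 RPKM (CPM per kilobase of exon, SD, n = 2), followed by Zfp428 at 65.4 ± 3.05 and Zfp110 at 60.5 ± 3.35 RPKM. The median member was at 5.32 RPKM, and the lowest after Zfp575 were Zfp536 at 0.100 ± 0.0640 and Zfp541 at 0.107 ± 0.0257 RPKM. Zfp568 and Zfp428 differed by less than the SD of Zfp568, so their order is not resolved. The sum over all members had a mean of 3050.1 CPM without and 2446 with TSA in wild type cells, and of 3034 without and 2321 with TSA in TKO cells.

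**Figure D1:**
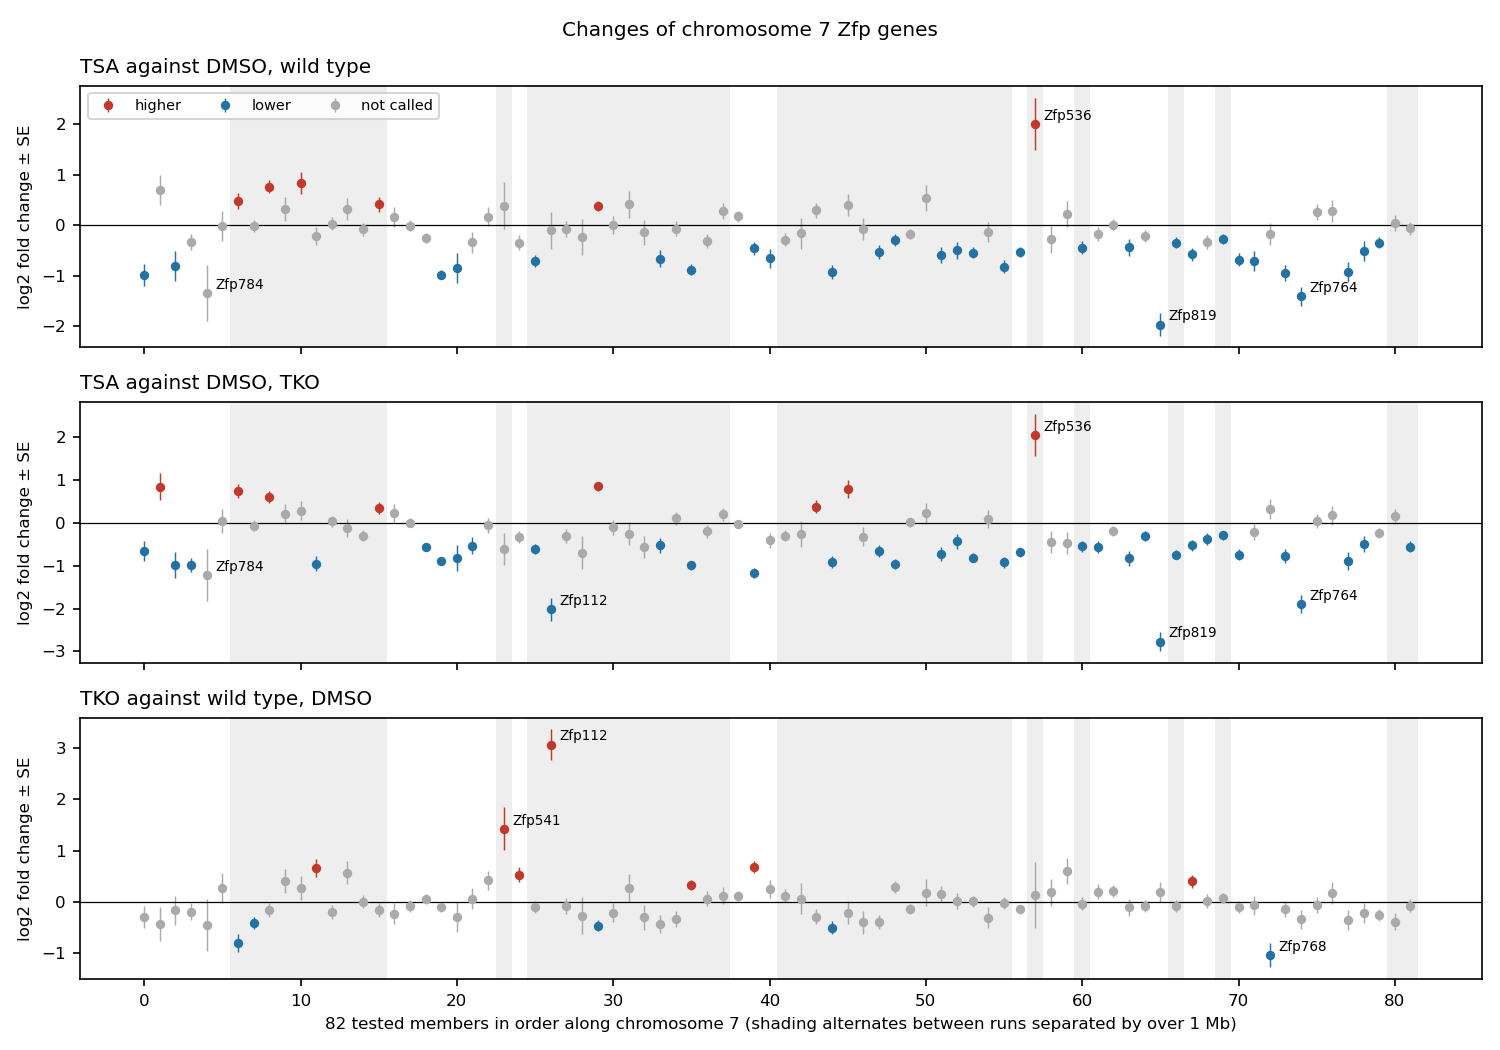
Log2 fold change (y axis, bars ± SE) of the 82 tested members in their order along chromosome 7 (x axis, rank), for TSA against DMSO in wild type, TSA against DMSO in TKO, and TKO against wild type in DMSO. Red points were called higher, blue points called lower and grey points not called. Shading alternates between runs separated by over 1 Mb. With TSA, blue points outnumber red ones by 30 to 6 in wild type (16 to 13 when scaled by totals alone) and by 36 to 8 in TKO, and in the bottom panel Zfp112 stands above all other members at 3.07.

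The first comparison was TSA against DMSO in wild type cells. Zinc finger genes of chromosome 7 that changed mostly fell: 30 of the 82 tested members were lower (36.6%; 25.9% of all genes tested were lower) and 6 were higher (7.32%; 27.0% of all genes), so that 36 members were called against 52.8% of all genes. The median log2 fold change was -0.22 over the members and 0.01 over all genes. When libraries were scaled by their totals alone, 13 members were higher and 16 lower, 36.7% of all genes were higher and 15.4% lower, and the all-gene median shifted to 0.22. Without wild type TSA replicate 2 the counts were 3 higher and 16 lower, and without wild type TSA replicate 1 the number higher was 3. Bulk RNA does not tell apart fewer cells of a kind and less RNA per cell.

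The largest decrease with TSA in wild type was that of Zfp819 (chr7:43607169-43618279, plus strand), a KRAB zinc finger protein known to bind TRIM28 and to act in embryonic stem cells. It was at 36.2 and 30.2 CPM without and 9.95 and 6.93 with TSA in wild type cells, and 40.6 and 35.2 without and 6.90 and 4.27 with TSA in TKO cells. Both TSA groups lay below both DMSO groups, and the 2 DMSO groups overlapped. Its log2 fold change was -1.97 ± 0.22 in wild type (edgeR adjusted p 5.86e-05) and -2.77 ± 0.23 in TKO (edgeR adjusted p 5.55e-06), which is 3.92-fold and 6.81-fold lower.

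Zfp764 (chr7:127403668-127406822, minus strand) had the next largest decrease in wild type. Its level was 14.5 and 15.6 CPM without and 5.74 and 5.50 with TSA in wild type cells, and 12.7 and 11.1 without and 3.79 and 2.64 with TSA in TKO cells. The TSA libraries lay below the DMSO libraries in both genotypes, and those of TKO with TSA were the lowest. The log2 fold change with TSA was -1.42 ± 0.20 in wild type and -1.89 ± 0.21 in TKO (edgeR adjusted p 0.0002 and 3.18e-05). Its neighbour Zfp747 (chr7:127372537-127376050, also on the minus strand) fell by 0.95 and 0.78 on the log2 scale.

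Zfp110 (chr7:12834810-12850584, plus strand), which codes for the neurotrophin receptor interacting factor NRIF, was among the most abundant members. It was at 206 and 223 CPM without and 114 and 104 with TSA in wild type cells, and 193 and 205 without and 110.0 and 104 with TSA in TKO cells. All 4 TSA libraries lay below all 4 DMSO libraries, and the genotypes overlapped under TSA. The decrease was close to 2-fold in both genotypes, -0.98 ± 0.094 and -0.89 ± 0.094 (edgeR adjusted p 2.84e-05 and 2.08e-05). Zfp428 (chr7:24507087-24515682, plus strand) moved in the same way, from 78.8 and 73.7 to 40.0 and 42.9 in wild type and from 92.0 and 99.2 to 44.8 and 51.4 in TKO.

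Zfp568, the member with the highest mean RPKM in wild type DMSO, did not pass the test in any comparison. This KRAB protein is known for silencing a placental transcript of Igf2 in the early mouse embryo. Its level was 553 and 464 CPM without and 463 and 439.5 with TSA in wild type cells, and 474 and 449 without and 479.7 and 452 with TSA in TKO cells, and the log2 fold change with TSA was -0.17 ± 0.10 in wild type and 0.013 ± 0.10 in TKO (edgeR adjusted p 0.166 and 0.914). Zfp473, the mouse counterpart of a protein that takes part in histone pre-mRNA processing, fell from 95.6 and 99.4 to 77.4 and 75.5 in wild type and from 83.2 and 101 to 58.2 and 52.2 in TKO. Scaled by totals alone, the wild type decrease of Zfp473 was not called. Its call in wild type was lost without wild type DMSO replicate 2 (adjusted p 0.0644), wild type TSA replicate 1 (adjusted p 0.0616) or wild type TSA replicate 2 (adjusted p 0.0974), while that in TKO held without each library in turn.

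Zfp143, a zinc finger factor without a KRAB domain that binds many active promoters, was at 62.5 and 69.3 CPM without and 56.2 and 53.1 with TSA in wild type cells, and 71.3 and 66.8 without and 55.6 and 57.5 with TSA in TKO cells. The TSA libraries lay below the DMSO libraries in both genotypes by a small margin, and its log2 fold change was -0.27 ± 0.10 in wild type and -0.29 ± 0.10 in TKO (edgeR adjusted p 0.0414 and 0.027). The wild type call was lost without any 1 library other than wild type DMSO replicate 1 (adjusted p 0.0519 to 0.205). The TKO call was lost without TKO DMSO replicate 1 (adjusted p 0.148), TKO DMSO replicate 2 (adjusted p 0.0537), TKO TSA replicate 1 (adjusted p 0.107) or TKO TSA replicate 2 (adjusted p 0.0736). Scaled by totals alone, neither call was made.

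The increases with TSA were fewer. Zfp536 (chr7:37479109-37769752, minus strand), known as a brake on neuronal differentiation, was at 0.642 and 0.243 CPM without and 1.53 and 2.17 with TSA in wild type cells, and 0.274 and 0.727 without and 2.03 and 2.13 with TSA in TKO cells. The level was low throughout, since the wild type DMSO libraries held 9 and 3 reads and the wild type TSA libraries 25 and 32. All 4 TSA libraries lay above all 4 DMSO libraries, and the log2 fold change was 2.00 ± 0.52 in wild type and 2.05 ± 0.49 in TKO (edgeR adjusted p 0.00762 and 0.0043). The wild type call was lost without wild type DMSO replicate 2 (adjusted p 0.055) or wild type TSA replicate 2 (adjusted p 0.0508), and the TKO call was lost without TKO DMSO replicate 1 (adjusted p 0.0514).

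In wild type, 4 of the 6 increases lay in the run from Zfp787 to Zfp772 (6131489 to 7209998), named after its values were seen. Of its 10 members, 4 were higher (27.0% of all genes) and 0 lower (25.9% of all genes). The median log2 fold change of the run was 0.32. Zfp667 rose from 20.0 and 20.8 to 36.9 and 32.3, with a log2 fold change of 0.76 ± 0.13 (edgeR adjusted p 0.000757). Zfp78 rose from 3.64 and 4.62 to 7.45 and 7.20, and its call was lost without wild type DMSO replicate 1 (adjusted p 0.0641). Of the 7 other tested genes lying inside that run, 3 were higher and 0 lower. Without any 1 of the 4 wild type libraries, the number of members higher in the run was 2.

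Zfp787 rose from 12.98 and 11.0 to 17.2 and 16.2, a call lost without wild type DMSO replicate 2 (adjusted p 0.127), wild type TSA replicate 1 (adjusted p 0.122) or wild type TSA replicate 2 (adjusted p 0.0716). Zfp772 rose from 13.7 and 13.3 to 17.4 and 18.5, a call lost without wild type DMSO replicate 1 (adjusted p 0.064), wild type DMSO replicate 2 (adjusted p 0.0865), wild type TSA replicate 1 (adjusted p 0.0751) or wild type TSA replicate 2 (adjusted p 0.151). The sixth increase was that of Zfp111, in the run that also holds Zfp112, from 43.7 and 44.4 to 58.1 and 56.0, a call lost without wild type TSA replicate 1 (adjusted p 0.0599). Zfp667 was therefore the one increase that held without each library in turn.

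Calls in wild type that held without each of the 8 libraries in turn numbered 15 of 36. Beside Zfp667 these were the decreases of Zfp628, Zfp110, Zfp180, Zfp428, Zfp940, Zfp260, Zfp146, Zfp507, Zfp819, Zfp710, Zfp553, Zfp747, Zfp764 and Zfp629, named after their values were seen. The run from Zfp553 to Zfp646 (127233443 to 127885996) had 7 of 10 members lower (25.9% of all genes) and 0 higher, with a median of -0.60, and 4 lower without wild type DMSO replicate 1 or wild type TSA replicate 2. The 21 other tested genes inside it gave 9 lower, 2 higher and a median of -0.41. In the 15-gene run from Zfp84 to Zfp146, 7 members were lower and 0 higher, but 3 were lower without wild type TSA replicate 2, where Zfp383, Zfp74, Zfp82 and Zfp566 lost their call, and 5 without wild type DMSO replicate 2.

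The comparison with other genes of the same name was made because their products are of the same class. Of 239 tested Zfp genes on other chromosomes, 77 were lower (32.2%) and 35 higher (14.6%) with TSA in wild type, with a median of -0.14. The other 1151 tested genes of chromosome 7 gave 330 lower (28.7%) and 274 higher (23.8%). Genes that are not members but lie inside the runs gave 25 lower and 23 higher of 92. Members and Zfp genes elsewhere thus had a lower share of increases than all genes, and the difference between the lists was not tested.

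**Figure D2:**
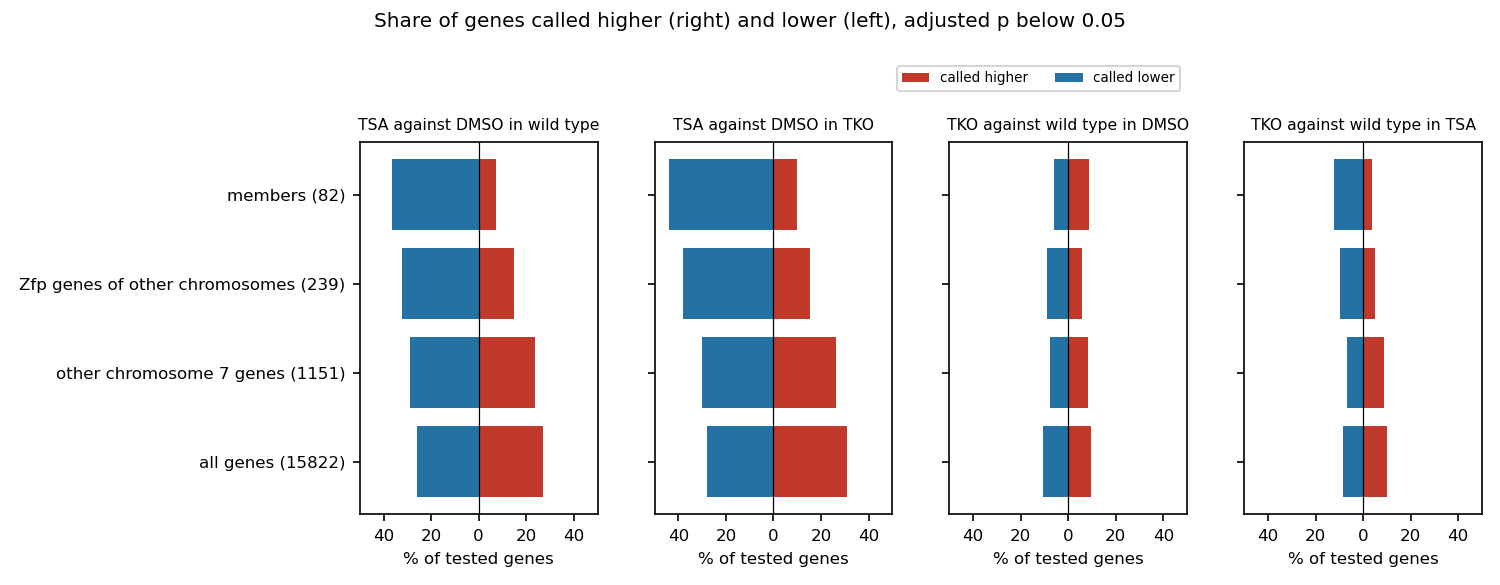
Percentage of tested genes called higher (red, to the right) and lower (blue, to the left) in 4 comparisons (panels), for the 82 members, 239 Zfp genes of other chromosomes, 1151 other genes of chromosome 7 and all 15822 genes tested. With TSA the members have the shortest red bars, 7.32% in wild type and 9.76% in TKO, under the TMM scaling. Scaled by totals alone, 13 members are higher in wild type.

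Over all genes, the share of decreases with TSA rose with level, so members were set beside genes of like level. Level here is the mean log2 CPM over all 8 libraries, so the TSA libraries enter it. In the highest quartile of genes by this level, 7 of 9 members (77.8%) were lower in wild type against 45.9% of all genes there. In the third quartile, 8 of 22 members (36.4%) were lower against 31.3% of all genes. In the second, which held 42 members, 14 (33.3%) were lower against 19.0%. The lowest quartile held 9 members, of which 1 was lower and 1 higher, against 7.31% and 40.6% of all genes.

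The summed levels of most lists of cell state markers moved with TSA. Only sums are given, so single genes of a list may have moved otherwise. The summed level of 10 stem cell markers ran from 3503 to 3974 CPM without and from 1939.7 to 2178 with TSA in wild type, and from 4427 to 4853 without and 1926 to 2253 with TSA in TKO. The sum of 6 markers of the 2-cell-like state ran from 10.3 to 10.6 CPM without and from 117 to 203 with TSA in wild type, and from 6.63 to 7.78 without and 249.8 to 317 with it in TKO. The sum of 4 trophoblast markers ran from 3.48 to 5.42 CPM without and from 44.9 to 50.9 with TSA in wild type, and from 3.08 to 3.49 without and 38.9 to 51.1 with it in TKO. In wild type the neuroectoderm sum ran from 25.8 to 31.7 CPM without and from 8.29 to 8.30 with TSA, the mesoderm sum from 14.01 to 23.8 and from 8.69 to 12.0, and the endoderm sum from 5.35 to 6.48 and from 8.06 to 11.2. In TKO the neuroectoderm sum ran from 39.7 to 52.6 CPM without and from 11.1 to 17.9 with TSA. The TKO mesoderm sum went the other way from wild type, from 4.03 to 4.44 CPM without and from 13.9 to 15.3 with TSA. The TKO endoderm sum ran from 16.0 to 18.3 CPM without and from 27.4 to 31.3 with TSA. The sum of 8 mesenchymal markers overlapped in wild type, from 235 to 461 CPM without and from 293 to 499 with TSA. In TKO the mesenchymal sum ran from 21.8 to 35.4 CPM without and from 43.6 to 52.7 with TSA. The part of these markers in the results on the members was not tested.

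In TKO cells the same comparison gave 36 members lower (43.9%; 27.9% of all genes) and 8 higher (9.76%; 30.8% of all genes), 44 calls against 58.7% of all genes, with a median of -0.35 over the members and 0.04 over all genes. Without TKO DMSO replicate 1 only 3 members were higher, and without wild type TSA replicate 1, TKO DMSO replicate 2, TKO TSA replicate 1 or TKO TSA replicate 2 the number was 5. The lower count ran from 25 to 37 without 1 library. Scaling by totals alone gave 8 higher and 27 lower and moved the median of all genes to 0.19. The TSA contrasts of the 2 genotypes share no library. 32 members were called in both, 5 higher and 27 lower, with 0 called in opposite directions. The 27 shared decreases are 90.0% of those in wild type and 75.0% of those in TKO, and the 5 shared increases 83.3% and 62.5%. Over all genes the shared decreases were 81.8% and 75.9%, and the shared increases 81.3% and 71.2%.

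Across the 82 members the 2 sets of log2 fold changes correlated with an r of 0.84, as over all 15822 genes (0.84), where genes are not independent replicates. In the highest quartile of genes by level, 7 of 9 members were lower in TKO with TSA (43.8% of all genes there), and in the third quartile 12 of 22 (54.5%; 32.7% of all genes). Zfp genes of other chromosomes gave 91 of 239 lower and 37 higher in TKO. In the run from Zfp787 to Zfp772, 3 of 10 members were higher in TKO (30.8% of all genes). There 1 was lower (27.9% of all genes), and the run's median was 0.12. Calls in TKO that held without each library numbered 27 of 44, with 24 decreases and the increases of Zfp787, Zfp667 and Zfp111.

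Zfp111 (chr7:24193215-24208149, minus strand) was at 43.7 and 44.4 CPM without and 58.1 and 56.0 with TSA in wild type cells, and 32.4 and 31.4 without and 59.4 and 56.0 with TSA in TKO cells. The TKO DMSO libraries were the lowest and the 2 TSA groups overlapped. The log2 fold change with TSA was 0.85 ± 0.10 in TKO (edgeR adjusted p 4.08e-05) and 0.37 ± 0.10 in wild type, and the difference between them, 0.48, had an edgeR adjusted p of 0.131.

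Zfp865 fell in TKO with TSA from 22.9 and 20.5 to 9.60 and 12.4 (-0.98 ± 0.17, edgeR adjusted p 0.000609). In wild type it was at 27.8 and 21.8 without and 19.8 and 19.6 with TSA, a log2 fold change of -0.33 ± 0.17 that was not called. Zfp941 was at 50.5 and 54.3 CPM without and 50.1 and 50.2 with TSA in wild type cells, and 52.7 and 46.3 without and 37.6 and 30.0 with TSA in TKO cells, and it was called lower in TKO (-0.55 ± 0.13, edgeR adjusted p 0.00331) and not called in wild type (-0.062 ± 0.13). For both genes the libraries of TKO cells with TSA were the lowest. Neither gene passed the test of the difference between genotypes (edgeR adjusted p 0.234 and 0.229).

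The next comparison, TKO against wild type in DMSO, asks which members differ in cells without the DNA methyltransferases when no TSA is given. Few members changed: 7 were higher (8.54%; 9.62% of all genes) and 5 lower (6.10%; 10.7% of all genes), 12 calls against 20.4% of all genes. Without 1 library the number higher ran from 2 (without wild type DMSO replicate 1 or TKO DMSO replicate 2) to 6. It was 3 without wild type DMSO replicate 2 and 4 without TKO DMSO replicate 1. The number lower was 3 without wild type DMSO replicate 1, 1 without TKO DMSO replicate 1 and 2 without TKO DMSO replicate 2. Only the increases of Zfp112 and Zfp59 held without each library. In these groups the summed level of 8 mesenchymal markers was 461 and 235 CPM in wild type DMSO and 35.4 and 21.8 in TKO DMSO. The stem cell sum was 3503 to 3974 in wild type and 4427 to 4853 in TKO, the endoderm sum 5.35 to 6.48 and 16.0 to 18.3, the mesoderm sum 14.01 to 23.8 and 4.03 to 4.44, and the neuroectoderm sum 25.8 to 31.7 and 39.7 to 52.6. The part of these markers in the results was not tested.

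Zfp112 (chr7:24112320-24127952, plus strand) showed the largest difference of any member in this comparison. It was at 1.21 and 1.13 CPM without and 0.977 and 1.22 with TSA in wild type cells, and 8.96 and 11.0 without and 2.91 and 2.01 with TSA in TKO cells. The wild type levels rest on 17 and 14 reads without TSA, and the TKO levels on 131 and 151. The TKO DMSO libraries stood above all others, the TKO TSA libraries came next, and the wild type groups overlapped. Zfp112 was 8.42-fold higher in TKO than in wild type in DMSO, a log2 fold change of 3.07 ± 0.29 (edgeR adjusted p 7.90e-05).

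With TSA the level of Zfp112 in TKO fell by 2.02 on the log2 scale (SE 0.26, edgeR adjusted p 7.73e-05), while in wild type the log2 fold change was -0.10 ± 0.37 (edgeR adjusted p 0.835). The difference between these responses was -1.92 ± 0.45 and missed the threshold (edgeR adjusted p 0.0693). Under TSA it remained higher in TKO than in wild type by 1.16 ± 0.32 (edgeR adjusted p 0.0296), a call lost without wild type TSA replicate 1 (adjusted p 0.204), wild type TSA replicate 2 (adjusted p 0.0663) or TKO TSA replicate 1 (adjusted p 0.171). The members on either side did not pass the test in DMSO. Zfp180, whose start lies 30.4 kb away, was at 38.8 and 38.6 in wild type DMSO and 37.6 and 34.5 in TKO DMSO, with a log2 fold change of -0.10 ± 0.11, and Zfp235, on the other side, was at 13.8 and 15.9 in wild type and 13.95 and 14.3 in TKO (-0.074 ± 0.16).

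Zfp59 (chr7:27838584-27856774, plus strand) was likewise highest in TKO DMSO, at a higher level. Unlike Zfp112, it was called lower with TSA in both genotypes. Scaled by totals alone, the wild type call was not made. Zfp59 was at 47.2 and 49.8 CPM without and 36.6 and 33.7 with TSA in wild type cells, and 71.6 and 83.0 without and 37.1 and 31.8 with TSA in TKO cells. The TKO DMSO libraries were the highest, and the TSA groups of the 2 genotypes overlapped. It was higher in TKO in DMSO by 0.67 ± 0.12 (edgeR adjusted p 0.00264) and fell with TSA by 1.17 in TKO and 0.46 in wild type. The wild type call was lost without wild type TSA replicate 2 (adjusted p 0.0633). The difference between genotypes in the response to TSA was -0.70 ± 0.17 (edgeR adjusted p 0.0755).

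Zfp28, the next member after Zfp78, was at 11.0 and 9.96 CPM without and 9.16 and 8.97 with TSA in wild type cells, and 14.7 and 18.4 without and 8.72 and 8.41 with TSA in TKO cells. The TKO DMSO libraries were the highest, and the difference from wild type in DMSO was 0.66 ± 0.17 (edgeR adjusted p 0.0192), a call lost without wild type DMSO replicate 1 (adjusted p 0.0581), wild type DMSO replicate 2 (adjusted p 0.0677) or TKO DMSO replicate 2 (adjusted p 0.169). With TSA it fell in TKO by 0.95 (SE 0.17, edgeR adjusted p 0.000711), while the wild type log2 fold change was -0.21 ± 0.18.

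Zfp541, a gene of meiotic germ cells, was at 0.571 and 0.405 CPM without and 0.610 and 0.679 with TSA in wild type cells, and 1.37 and 1.31 without and 0.947 and 0.816 with TSA in TKO cells. Both TKO groups lay above both wild type groups, at a level of 8 and 5 reads in wild type DMSO and 20 and 18 in TKO DMSO. The log2 fold change in DMSO was 1.43 ± 0.42 (edgeR adjusted p 0.0344), a call lost without any 1 of the 8 libraries (adjusted p 0.0524 to 0.134).

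Zfp296, known as a pluripotency factor that aids reprogramming, was at 30.2 and 32.3 CPM without and 24.2 and 24.9 with TSA in wild type cells, and 37.9 and 52.2 without and 34.1 and 37.7 with TSA in TKO cells. Both TKO groups lay above both wild type groups, with log2 differences of 0.53 ± 0.15 in DMSO and 0.55 ± 0.15 in TSA (edgeR adjusted p 0.029 and 0.0275). The DMSO call was lost without wild type DMSO replicate 1 (adjusted p 0.146) or TKO DMSO replicate 2 (adjusted p 0.293). The TSA call was lost without wild type TSA replicate 1 (adjusted p 0.146), wild type TSA replicate 2 (adjusted p 0.078) or TKO TSA replicate 2 (adjusted p 0.148). The 2 comparisons share no library.

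Over the 8 libraries, the members whose log2 CPM followed that of Zfp112 most closely were Zfp541 (Pearson r 0.93), Zfp296 (0.85) and Zfp28 (0.82), given as a description over libraries that fall into groups. Zfp710 and Zfp428 were the other members called higher in TKO in DMSO. Zfp710 was at 155 and 147 in wild type and 196 and 204 in TKO (0.40 ± 0.13, edgeR adjusted p 0.0467), a call lost without wild type DMSO replicate 1 (adjusted p 0.123), wild type DMSO replicate 2 (adjusted p 0.128), TKO DMSO replicate 1 (adjusted p 0.132) or TKO DMSO replicate 2 (adjusted p 0.204). Zfp428 was at 78.8 and 73.7 in wild type and 92.0 and 99.2 in TKO (0.33 ± 0.10, edgeR adjusted p 0.0477), a call lost without any 1 library other than TKO TSA replicate 1 or TKO TSA replicate 2 (adjusted p 0.0648 to 0.259).

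The members lower in TKO in DMSO were led by Zfp768 (chr7:127342795-127345314, minus strand), at 7.42 and 5.83 in wild type and 3.01 and 3.42 in TKO. Its log2 fold change was -1.05 ± 0.23 (edgeR adjusted p 0.00913), a call lost without wild type DMSO replicate 1 (adjusted p 0.0711) or TKO DMSO replicate 1 (adjusted p 0.07). Zfp787 was at 12.98 and 11.0 CPM without and 17.2 and 16.2 with TSA in wild type cells, and 6.63 and 7.13 without and 11.3 and 11.7 with TSA in TKO cells, so that it was lower in TKO and higher with TSA. The difference in DMSO was -0.80 ± 0.17 (edgeR adjusted p 0.00688), a call lost without TKO DMSO replicate 1 (adjusted p 0.0552).

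Zfp111 was likewise lower in TKO in DMSO and higher with TSA, with a difference between genotypes in DMSO of -0.46 ± 0.10 (edgeR adjusted p 0.0082), a call lost without TKO DMSO replicate 2 (adjusted p 0.0739). Zfp444, the neighbour of Zfp787, was at 35.9 and 31.2 CPM without and 34.0 and 32.1 with TSA in wild type cells, and 25.0 and 25.2 without and 25.2 and 23.0 with TSA in TKO cells. It was lower in TKO in both treatments, and within each genotype the libraries with and without TSA overlapped. The DMSO call was lost without wild type DMSO replicate 1 (adjusted p 0.162), wild type TSA replicate 1 (adjusted p 0.0528), wild type TSA replicate 2 (adjusted p 0.0519), TKO DMSO replicate 1 (adjusted p 0.148) or TKO DMSO replicate 2 (adjusted p 0.151). The TSA call was lost without wild type TSA replicate 1 (adjusted p 0.174), wild type TSA replicate 2 (adjusted p 0.0649), TKO TSA replicate 1 (adjusted p 0.0559) or TKO TSA replicate 2 (adjusted p 0.17).

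Under TSA, TKO cells had 3 members higher than wild type cells (3.66%; 10.0% of all genes) and 10 lower (12.2%; 8.38% of all genes), 13 calls against 18.4% of all genes. None of the 13 calls held without each library, and the counts fell to 0 higher without wild type TSA replicate 2 and to 1 higher without wild type TSA replicate 1 or TKO TSA replicate 1. The number lower was 1 without wild type TSA replicate 1 or TKO TSA replicate 2, and 6 without wild type TSA replicate 2 or TKO TSA replicate 1. The mesenchymal marker sum was 499 and 293 CPM in wild type TSA and 43.6 and 52.7 in TKO TSA, and the endoderm sum was 8.06 to 11.2 and 27.4 to 31.3. Their part in these results was not tested. 6 members were called both here and in DMSO, 3 higher (Zfp112, Zfp296 and Zfp710) and 3 lower (Zfp787, Zfp444 and Zfp940). The strongest decrease was that of Zfp865 (-0.84 ± 0.17, edgeR adjusted p 0.00733), a call lost without TKO TSA replicate 1 (adjusted p 0.0532). Zfp764 was lower by 0.81 (edgeR adjusted p 0.0272), a call lost without wild type TSA replicate 1 (adjusted p 0.14), wild type TSA replicate 2 (adjusted p 0.0697) or TKO TSA replicate 2 (adjusted p 0.207).

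TSA-treated TKO cells compared with solvent-treated wild type cells gave 38 members lower (46.3%; 30.2% of all genes) and 6 higher (7.32%; 31.7% of all genes), 44 calls against 61.9% of all genes, with a median of -0.31. The number higher was 3 without wild type DMSO replicate 1, and under scaling by totals alone it was 12 (median of all genes 0.17). Among members with a mean of at least 1 CPM the decreases were led by Zfp819 (-2.58 ± 0.23), Zfp764 (-2.23 ± 0.21), Zfp940 (-1.42 ± 0.13) and Zfp629 (-1.25 ± 0.20), with edgeR adjusted p-values of 6.44e-06, 8.71e-06, 8.46e-06 and 0.0003. Zfp629 was at 15.5 and 11.7 CPM in wild type DMSO and 6.42 and 5.08 CPM in TSA-treated TKO.

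No member was called for the interaction, the TSA response in TKO minus that in wild type (0 higher and 0 lower; 0.879%, 0.468% and, in either direction, 1.35% of all genes). At an unadjusted p under 0.05, edgeR's test gave 9 members, and DESeq2 called 1, Zfp59. With the low-level filter left out edgeR called 2, Zfp112 and Zfp59. With a replicate block, a term for the replicate number, edgeR called 3 lower, Zfp112, Zfp59 and Zfp74. In the fit without a block these 3 had the smallest edgeR adjusted p-values, 0.0693, 0.0755 and 0.0813. The shares of all genes at the unadjusted p and under DESeq2, no filter or the block are not given here. Whether these counts of members exceed those shares was therefore not examined. By the fit without a block, a response to TSA that was called in one genotype and not in the other is not shown to differ between them.

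**Figure D3:**
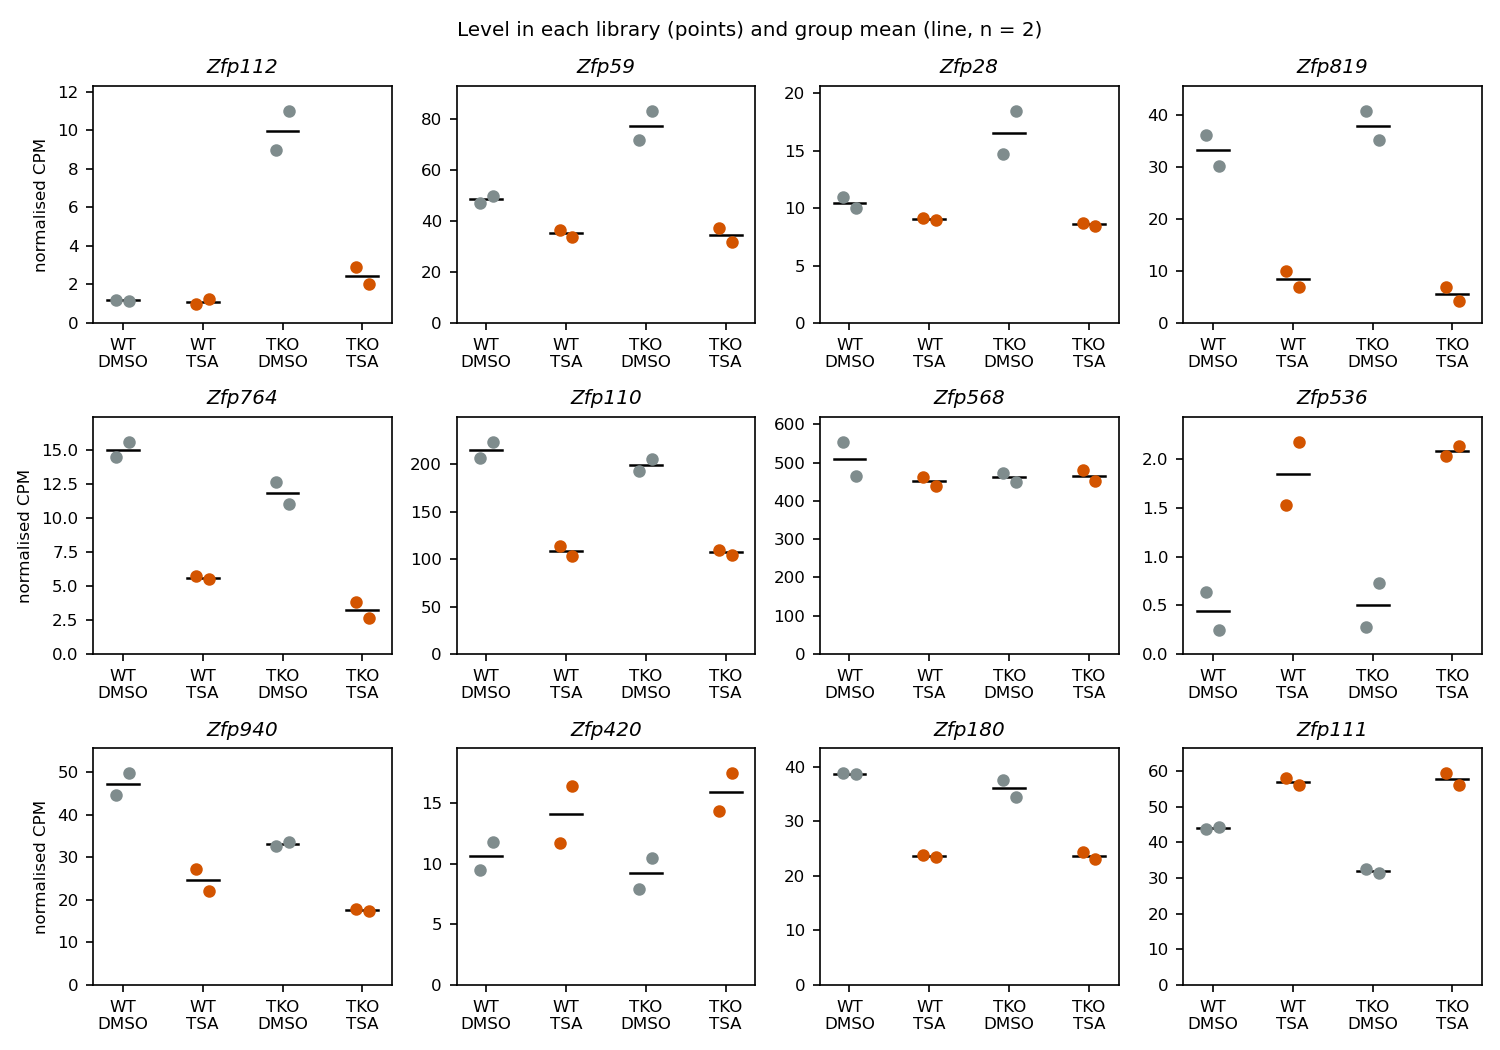
Normalised CPM (y axis, linear from 0) of 12 members in the 4 groups (x axis); points are libraries (grey DMSO, orange TSA) and lines are means of 2 libraries. Zfp112, Zfp59 and Zfp28 are highest in TKO DMSO, Zfp819, Zfp764, Zfp110 and Zfp180 are lower with TSA in both genotypes, Zfp536 is higher with TSA in both, and the libraries of Zfp568 lie between 439.5 and 553 CPM.

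Neighbouring members were then compared, since genes of a cluster share their surroundings and much of their sequence. There were 51 pairs of consecutive members with starts within 100 kb. Other tested genes can lie between the members of a pair, while the pairs of all genes have no tested gene between their starts. The 2 kinds of pair are therefore not fully alike. With TSA in wild type, both genes were called in 8 pairs (15.7%; 27.8% of all pairs of consecutive tested genes), all lower, 1 gene in 27 pairs and no gene in 16. The 8 pairs were 1 without wild type TSA replicate 2 and 4 without wild type DMSO replicate 1. In TKO both genes were called in 15 pairs (29.4%; 33.1% of all such pairs), of which 11 moved together and 4 (26.7%) in opposite directions. Over all pairs with both genes called, 34.8% were opposite in TKO and 36.0% in wild type. In TKO the opposed pairs were 0 without TKO DMSO replicate 1, and 1 without TKO DMSO replicate 2, TKO TSA replicate 1, TKO TSA replicate 2 or wild type TSA replicate 1. The pairs that moved together were 4 without either TKO TSA library, 5 without TKO DMSO replicate 1 and 6 without TKO DMSO replicate 2. The 11 pairs all fell. Across the pairs the log2 fold changes of the first and second gene correlated with an r of 0.07 in wild type and -0.01 in TKO. Over 10826 pairs of consecutive tested genes of the whole table within 100 kb the r was 0.24 and 0.26. These are descriptions over pairs that share genes.

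**Figure D4:**
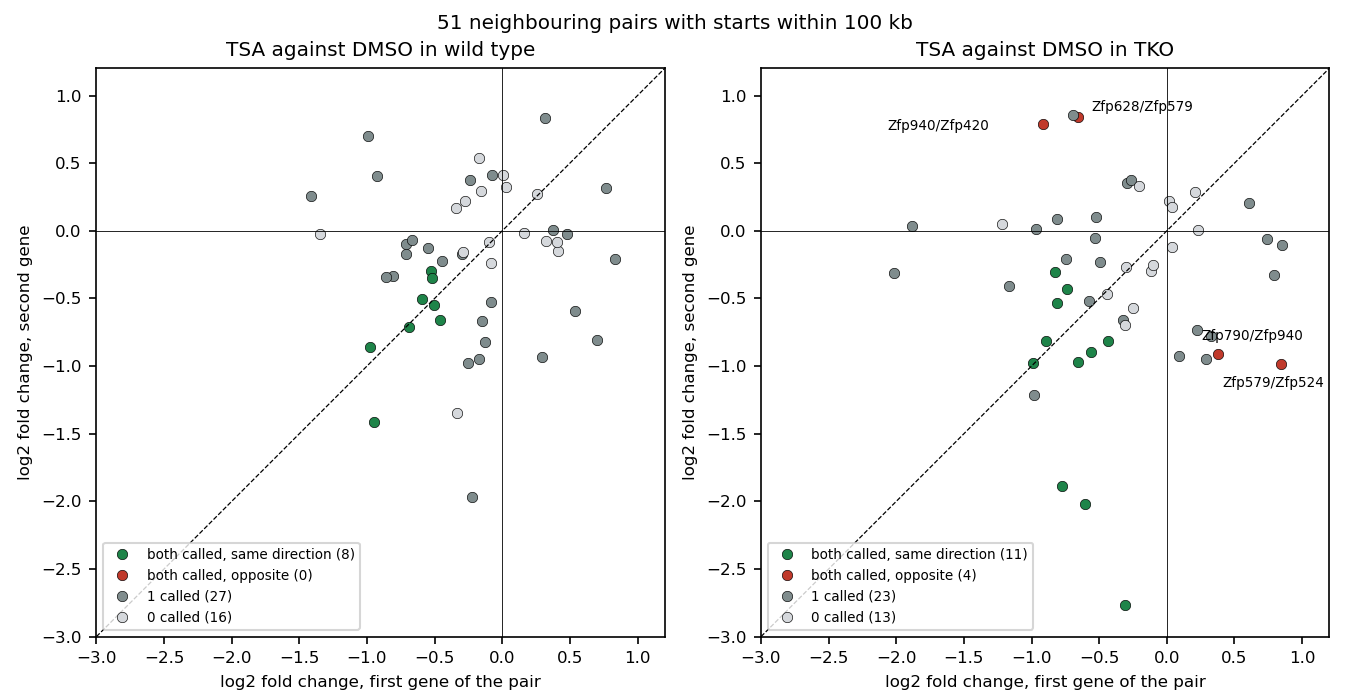
Log2 fold change of the first gene (x axis) against the second gene (y axis) of 51 pairs of consecutive members, for TSA against DMSO in wild type (left) and TKO (right). Green pairs were both called in 1 direction, red pairs in opposite directions, and grey pairs had 1 or 0 genes called. The dashed line marks equal change. Points scatter away from it, and the 4 red pairs in TKO are named.

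A pair of opposed neighbours lay within the 15-gene run. Zfp940 (chr7:29843936-29853648, minus strand) was at 44.5 and 49.7 CPM without and 27.3 and 22.1 with TSA in wild type cells, and 32.6 and 33.5 without and 17.8 and 17.3 with TSA in TKO cells. Zfp420 (chr7:29859979-29877302, plus strand), read in the opposite direction from a start 6.33 kb away, was at 9.49 and 11.8 CPM without and 11.7 and 16.4 with TSA in wild type cells, and 7.93 and 10.5 without and 14.3 and 17.4 with TSA in TKO cells. Zfp940 was lower in both TSA groups than in the DMSO group of the same genotype, while Zfp420 was higher with TSA in TKO and overlapped in wild type. In TKO the log2 fold changes were -0.91 ± 0.13 and 0.79 ± 0.22 (edgeR adjusted p 0.000189 and 0.00922), and in wild type -0.93 ± 0.13 and 0.40 ± 0.22 (edgeR adjusted p 0.00021 and 0.142). The TKO call of Zfp420 was lost without TKO DMSO replicate 1 (adjusted p 0.0926) or TKO TSA replicate 2 (adjusted p 0.0696).

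On the other side of Zfp940, Zfp790 was at 17.5 and 14.8 CPM in TKO cells without and 22.7 and 19.4 with TSA, a log2 fold change of 0.38 ± 0.15 (edgeR adjusted p 0.0443), lost without wild type TSA replicate 1 (adjusted p 0.0641), wild type TSA replicate 2 (adjusted p 0.0619), TKO DMSO replicate 1 (adjusted p 0.051), TKO DMSO replicate 2 (adjusted p 0.261) or TKO TSA replicate 1 (adjusted p 0.255). Zfp940 was also lower in TKO than in wild type, by 0.51 in DMSO, a call lost without wild type DMSO replicate 2 (adjusted p 0.0648), TKO DMSO replicate 1 (adjusted p 0.1) or TKO DMSO replicate 2 (adjusted p 0.0917). Zfp790, Zfp940 and Zfp420 lie next to each other in that order, and the middle gene fell in TKO while the outer genes rose.

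The second group of opposed neighbours was Zfp628, Zfp579 and Zfp524 in the most proximal run. In TKO, Zfp628 went from 6.15 and 5.82 to 3.58 and 4.02, Zfp579 from 1.37 and 1.60 to 2.43 and 2.89 and Zfp524 from 2.53 and 2.91 to 1.35 and 1.38 with TSA. The log2 fold changes were -0.65 ± 0.22, 0.84 ± 0.31 and -0.99 ± 0.31 (edgeR adjusted p 0.0266, 0.036 and 0.0173). None of the 3 calls held without each library in turn. Scaled by totals alone, the call of Zfp628 was not made. Zfp628 was lost without TKO DMSO replicate 1 (adjusted p 0.104), TKO DMSO replicate 2 (adjusted p 0.0638), TKO TSA replicate 1 (adjusted p 0.114) or TKO TSA replicate 2 (adjusted p 0.0617). Zfp579 was lost without wild type TSA replicate 1 (adjusted p 0.0508), TKO DMSO replicate 1 (adjusted p 0.166), TKO DMSO replicate 2 (adjusted p 0.0798), TKO TSA replicate 1 (adjusted p 0.0573) or TKO TSA replicate 2 (adjusted p 0.171). Zfp524 was lost without TKO DMSO replicate 2 (adjusted p 0.0868), TKO TSA replicate 1 (adjusted p 0.0677) or TKO TSA replicate 2 (adjusted p 0.073).

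The 8 pairs that fell together in wild type included Zfp566 and Zfp260, which are read apart from starts 4.57 kb from each other, and Zfp668 and Zfp646, read apart from starts 0.878 kb from each other, both named after their values were seen. The wild type log2 fold changes were -0.50 ± 0.17 and -0.55 ± 0.11 in the first pair and -0.52 ± 0.19 and -0.35 ± 0.11 in the second. The call of Zfp566 was lost without wild type DMSO replicate 2 (adjusted p 0.0833) or wild type TSA replicate 2 (adjusted p 0.227), that of Zfp668 without wild type DMSO replicate 1 (adjusted p 0.308), wild type TSA replicate 2 (adjusted p 0.233), TKO DMSO replicate 1 (adjusted p 0.0553) or TKO DMSO replicate 2 (adjusted p 0.0548) and that of Zfp646 without wild type DMSO replicate 1 (adjusted p 0.174) or wild type TSA replicate 2 (adjusted p 0.195). Of the 51 pairs, 13 were read apart (divergent), 12 towards each other and 26 in 1 direction. Both genes fell with TSA in wild type in 2, 1 and 5 of them.

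In TKO against wild type in DMSO, 1 pair had both genes called, Zfp787 and Zfp444, both lower, and in 10 pairs 1 gene was called. Zfp112 stood in 2 of these 10, with Zfp180 and with Zfp235.

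The partners of KRAB proteins were read from a list of 22 genes, of which 21 matched the table. With TSA in wild type, 14 of the 21 were lower (25.9% of all genes; 45.9% in the highest quartile by level) and 0 higher, with a median of -0.46. The number lower was 9 without wild type TSA replicate 2. In TKO 10 were lower (27.9% of all genes; 43.8% in the highest quartile) and 1, Atf7ip, higher, with a median of -0.23, and 0 were higher without TKO DMSO replicate 2 or TKO TSA replicate 1. Trim28, the corepressor that KRAB domains bind, was at 2425 and 2293 CPM without and 1446 and 1367 with TSA in wild type cells, and 2427 and 2453 without and 1401 and 1409 with TSA in TKO cells. It fell in both genotypes without overlap, by 0.75 and 0.80 on the log2 scale (edgeR adjusted p 5.87e-05 and 2.12e-05). Cbx5, the gene of HP1 alpha, had the largest decrease of the list, from 1177 and 1209 to 507 and 475 in wild type and from 1025 and 847 to 304 and 247 in TKO. Setdb1, which methylates histone H3 lysine 9, was lower in wild type (-0.22 ± 0.085, edgeR adjusted p 0.0488) and gave 0.041 ± 0.085 in TKO (edgeR adjusted p 0.688). Its wild type call lay close to the threshold. Scaled by totals alone, the median of all genes with TSA in wild type was 0.22 in place of 0.01. The calls of this list, Setdb1 included, were not examined under that scaling.

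Without TSA, few genes of this list differed between TKO and wild type cells. Of the 21, 1 was lower in TKO (4.76%; 10.7% of all genes) and 1 higher (4.76%; 9.62% of all genes). The lower one was Pphln1, which codes for a subunit of the HUSH silencing complex (log2 fold change -0.62 ± 0.11, edgeR adjusted p 0.00213). Trim28 had a log2 fold change of 0.049 ± 0.083 there (edgeR adjusted p 0.733).

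Of the 82 tested members, 57 were called in at least 1 of the 5 comparisons between groups (69.5%; 78.5% of all genes) and 25, Zfp568 among them, in none.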

How the data were processed

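The authors deposited raw counts of reads per gene for the 8 RNA-seq libraries, with exon positions and summed exon lengths, which are lengths in bases per the file headers. Per the labels' protocols, RNA was depleted of ribosomal RNA and made into strand-directional libraries sequenced as paired reads. Per the submitters' processing notes, TopHat2 2.0.13, featureCounts 1.4.5-p1 and edgeR 3.22.3 were used with mm10, and the use of strand and of multi-mapping reads in counting is not given in the sources used here. Near-identical genes of a family could therefore lose or share reads.

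Here counts were fitted with edgeR 4.0.16 in R 4.3.3. filterByExpr kept 15822 genes, libraries were scaled by TMM, and all 8 libraries entered 1 quasi-likelihood fit of the 4 groups (4 residual degrees of freedom, common biological coefficient of variation 10.3%). Tests were two-sided, with Benjamini-Hochberg adjustment over the genes tested. Each standard error is approximate, being derived from a fold change and its F statistic. An exact permutation test of 2 against 2 libraries cannot go below p = 0.333. The test was checked on simulated counts in which few genes changed, as many up as down. That check does not bear on the choice of scaling. RPKM were computed here from the counts and the exon lengths. Alternatives were other scalings, a gene length offset, no filter, a neighbour limit of 50 kb, a minimum mean of 1 CPM, DESeq2 1.42.0, a replicate block, only the 2 groups compared, and leaving out each library. The members, lists and alternatives were chosen with earlier results of these data known. Named genes are, per comparison, up to 5 called members with the highest and 5 with the lowest log2 fold change (mean of at least 1 CPM, no overlap between groups), up to 5 opposed neighbouring pairs, 8 members of known role, and the 3 highest and 3 lowest per length. Levels at the floor cover counting error only, because PCR copies are not independent molecules. The result of 1 gene of the corepressor list is not reported here.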

Additional observations from a re-analysis of the deposited data

How the results depend on the processing

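With library totals as the only scaling, TSA in wild type gave 13 members higher and 16 lower and TSA-treated TKO against solvent-treated wild type gave 12 higher. DESeq2 gave 5 members higher with TSA in TKO, 6 lower in TKO against wild type in TSA and 1 lower for the interaction. A fit of only the 2 groups compared gave 1 higher in TKO against wild type in TSA. Without the expression filter the interaction gave 2 lower. The shares of all genes under DESeq2, the fit of 2 groups, no filter and the block are not given here. The labels number replicates alike in all groups without saying what a number marks. Libraries of 1 number deviated together with an r of 0.0673 to 0.325, positive in every pair of groups. Whether a number marks a shared batch is not known, and the fit reported held no replicate block. With the replicate block the interaction gave 3 members lower (Zfp112, Zfp59 and Zfp74) and no call of a named gene was lost. Leaving out 1 library gave 3 to 6 members higher and 16 to 28 lower for TSA in wild type, 3 to 8 and 25 to 37 for TSA in TKO, 2 to 6 and 1 to 5 for TKO in DMSO, 0 to 3 and 1 to 10 for TKO in TSA, and 3 to 7 and 27 to 37 for TSA-treated TKO against solvent-treated wild type. Where this leaves 1 library in a group, that library is assumed to vary like the other groups. Of 96 calls of named genes, none changed direction under any alternative, and 95 were kept with size factors, 87 with library totals, 93 with a gene length offset, 91 without the filter, 94 of 95 with a mean of at least 1 CPM, 77 with DESeq2, 83 with only the 2 groups compared, and 73 to 83 without 1 library. Limiting neighbours to 50 kb changed 15 pairs called in both genes to 13 for TSA in TKO. With 2 libraries per group, members of few reads such as Zfp536, Zfp541, Zfp579 and Zfp524 are limited by depth.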
